A study of Mus musculus with 6 samples.

Results

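EGF receptor signalling and the brakes it switches on were followed through 10 genes: the ligands Hbegf, Areg, Ereg, Tgfa and Nrg1, the receptor inhibitor Errfi1, the Sprouty genes Spry1 and Spry2, and the MAP kinase phosphatases Dusp4 and Dusp6. All array probes that the platform annotation assigns to these symbols were taken. This gave 17 of 45281 probes, for 8 of the 10 genes (of 19057 genes with a probe), and no probe carried the symbol Areg or Spry1. The genes were selected on family membership after the difference of Errfi1 between ages had been seen in these arrays. Their fold changes between ages are therefore a description, given with the error of the array-wide fit and with no p-value. Whether a member lay past the threshold of that fit is stated only to place it among all genes, and nothing is supported with it.

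The cells were CD11b-positive, Ly6G-negative cells from the hearts of ICR mice of both sexes, sorted 3 days after ligation of the left anterior descending coronary artery. Infarction was made at postnatal day 14 in the P14 group and at postnatal day 1 in the P1 group, with 3 arrays of total RNA in each, and every heart in both groups was injured. ICR is an outbred strain, and uninjured hearts were not analysed here. The labels do not tell separate animals from pools, so all errors measure the spread between arrays, which may be technical.

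Ligands of the EGF family are made as membrane-bound precursors and are cut loose by ADAM metalloproteases. Hbegf, Areg, Ereg and Tgfa bind the EGF receptor, and Nrg1 binds ErbB3 and ErbB4. The receptors signal through Ras and the ERK kinases, which induce genes that shut the pathway down again. Errfi1 (also called Mig-6) binds the receptor's kinase domain and blocks it, Sprouty proteins act between receptor and ERK, and Dusp4 and Dusp6 encode phosphatases that remove the activating phosphates of ERK. Macrophages are a known source of Hbegf, and Nrg1 acts on cardiomyocytes through ErbB receptors.

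RefSeq promoter windows are printed for the pair of inhibitors read by bright probes: Errfi1, which differed most between ages, and Dusp6, which did not pass the array-wide threshold. Each window runs from 250 bases before to 50 bases after an annotated start in GRCm38.p6. Capitals mark matches to a cAMP response element (TGACGTCA) or a TATA box (TATAAA), searched on both strands.
Errfi1, chr4:150854820-150855119, + strand: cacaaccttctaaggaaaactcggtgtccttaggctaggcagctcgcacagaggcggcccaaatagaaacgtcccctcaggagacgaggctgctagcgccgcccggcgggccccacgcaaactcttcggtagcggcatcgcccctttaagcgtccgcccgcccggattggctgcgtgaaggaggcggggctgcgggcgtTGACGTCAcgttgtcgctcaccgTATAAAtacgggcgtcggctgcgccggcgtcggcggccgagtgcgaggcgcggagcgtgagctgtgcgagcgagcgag
Dusp6, chr10:99262981-99263280, + strand: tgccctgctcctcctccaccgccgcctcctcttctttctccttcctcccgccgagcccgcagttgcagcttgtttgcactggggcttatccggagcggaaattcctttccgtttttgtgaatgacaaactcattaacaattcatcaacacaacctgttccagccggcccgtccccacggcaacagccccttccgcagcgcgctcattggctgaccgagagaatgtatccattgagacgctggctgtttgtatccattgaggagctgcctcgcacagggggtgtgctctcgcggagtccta
The Errfi1 window holds 1 cAMP response element, whose first base lies at position -51 from the start, and 1 TATA box at -28. Of 32851 windows of this length, 1.79% hold TGACGTCA and 13.6% hold TATAAA. Another annotated start of Errfi1, with its window at chr4:150853546-150853845, has neither. Windows on 1 chromosome, that of Hbegf, were left out of the search, so the motifs of Hbegf are not known here. The search covered 7 windows for 6 of the members, and Ereg, Nrg1 and Dusp4 had no window. Among the 7 windows searched, that of Areg also has a cAMP response element, at -61, and a TATA box, at -31, but Areg had no named probe. None of the 7 windows matched AP-1 (TGANTCA, in 7.81% of all windows), ETS (CCGGAAG, 8.86%), EGR (GCGGGGGCG, 2.91%), NF-kB (GGGANTTCC, 1.68%) or the CArG box of serum response factor (1.63%). GC boxes (GGGCGG, in 35.7% of all windows) were searched but not marked. The printed Errfi1 window has 3 and the Dusp6 window 0, and those of Areg, Spry1 and Tgfa also hold matches. The 2 marked motifs do not overlap in the Errfi1 window. A match is a string of letters in a window, and these arrays did not measure binding there.

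Values are quantile-normalized probe intensities, in arbitrary units, with the array background left in. The most frequent intensity was 113, and a floor was set at 128, which is 3 standard deviations above it. Probes brighter than the floor on 3 or more arrays were tested, and each gene was read from its brightest such probe. Log2 fold changes are P14 minus P1, and those of dim probes are understated because background was left in. Of the 8 macrophage and monocyte markers 7 had a probe, and none of these lay under the floor on every array. Of these 7, all tested, 1 was higher in P14 (Ptprc), 1 was lower (Csf1r, the receptor for macrophage colony-stimulating factor) and 5 did not pass. The summed intensity of the list, most of it from Cd14 and Lyz2, was 52785 to 56557 in P14 and 54640 to 57200 in P1. P14 replicate 3 stood apart from the other P14 arrays on the second principal component (-15.4, against 8.16 and 5.59 on replicates 1 and 2).

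Of the 8 members with a probe, 5 had a probe past the filter and were tested, and Ereg, Tgfa and Spry2 had none. Placed in the limma fit over all genes, with its threshold of an adjusted p under 0.05, Errfi1 and Nrg1 lay past it as higher in P14 and Hbegf as lower, while Dusp4 and Dusp6 did not. This restates the comparison that prompted the choice of genes. Over the whole array 20.6% of 10236 genes passed, 9.88% higher and 10.7% lower in P14. The ages did not overlap for 3 of the 5 members tested, against 39.1% of all genes tested. Because the members were chosen with this comparison known, nothing is read from these shares.

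Errfi1 had the largest difference of the members tested. Its intensity was 6365, 5891 and 7024 in P14, against 2866, 2908 and 2860 in P1. All P14 arrays lay above all P1 arrays, and the gap between the ages was wider than the spread within either. On the log2 scale the level averaged 12.65 ± 0.13 in P14 and 11.49 ± 0.01 in P1 (SD, n = 3 each). The fold was 2.23 (log2 fold change 1.16 ± 0.08, SE). By size this was rank 18 among the 10236 genes tested, counted from the gene most raised in P14. Leaving out single arrays gave log2 fold changes of 1.09 to 1.22, and other processing gave 1.12 to 1.17. Errfi1 was read by 1 probe, so no second probe checks it.

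The genes whose profile over the 6 arrays lay nearest to that of Errfi1 were Frmd7, Plk3 and Tnfsfm13. Likeness was measured as the root mean square difference between mean-centred log2 profiles, which was 0.11 for Frmd7, 0.11 for Plk3 and 0.12 for Tnfsfm13. Plk3 encodes a polo-like kinase, and Tnfsfm13 is a read-through transcript of neighbouring TNF-family ligand genes. Their log2 fold changes were 1.13 ± 0.10, 1.04 ± 0.08 and 0.99 ± 0.07 (SE), with 0.54 for the mean of the Tnfsfm13 probes. All of these genes were higher on every P14 array than on any P1 array. Because they were picked for likeness to Errfi1, this separation and the size of their folds follow from the choice.

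Hbegf, the heparin-binding ligand of the EGF receptor, ran the other way. Its intensity was 245, 276 and 223 in P14, against 341, 378 and 320 in P1. Every P14 array was below every P1 array, and all 6 were above the floor. The level averaged 7.95 ± 0.15 in P14 and 8.43 ± 0.12 in P1 on the log2 scale (SD, n = 3 each). That is a log2 fold change of -0.48 ± 0.10 (SE), or 1.40-fold lower in P14. It was -0.59 after normexp background correction and ranged from -0.56 to -0.41 without single arrays. A second Hbegf probe, annotated to another transcript record, stayed under the floor on all arrays (109 to 124 in P14 and 112 to 123 in P1) and gives no level.

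Nrg1, the neuregulin that binds ErbB3 and ErbB4, was read by 3 probes, of which only the brightest passed the filter and the other 2 were under the floor on all arrays. That probe gave 190, 172 and 187 in P14, against 151, 158 and 131 in P1. The ages did not overlap, but the lowest P1 array was close to the floor. The log2 fold change was 0.32 ± 0.09 (SE), with means of 7.52 ± 0.08 in P14 and 7.19 ± 0.14 in P1 (SD, n = 3 each). It was 0.47 after normexp background correction and 0.53 with a constant of 64 subtracted. Nrg1 no longer passed the array-wide threshold without P14 replicate 1 (0.29), P14 replicate 2 (0.37), P14 replicate 3 (0.31), P1 replicate 1 (0.34) or P1 replicate 3 (0.24). It did not pass with no filter on low values either.

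The remaining ligands were not measurable. Both probes of Ereg, which encodes epiregulin, were under the floor on all arrays (110 to 120 in P14 and 107 to 113 in P1). The probe of Tgfa, which encodes transforming growth factor alpha, exceeded the floor on 1 P14 array, at 131, and was otherwise at 122 and 124 in P14 and 121 to 126 in P1. Values this near to the most frequent intensity show that these transcripts were not detectable with these probes, not that they were absent.

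**Figure D1:**
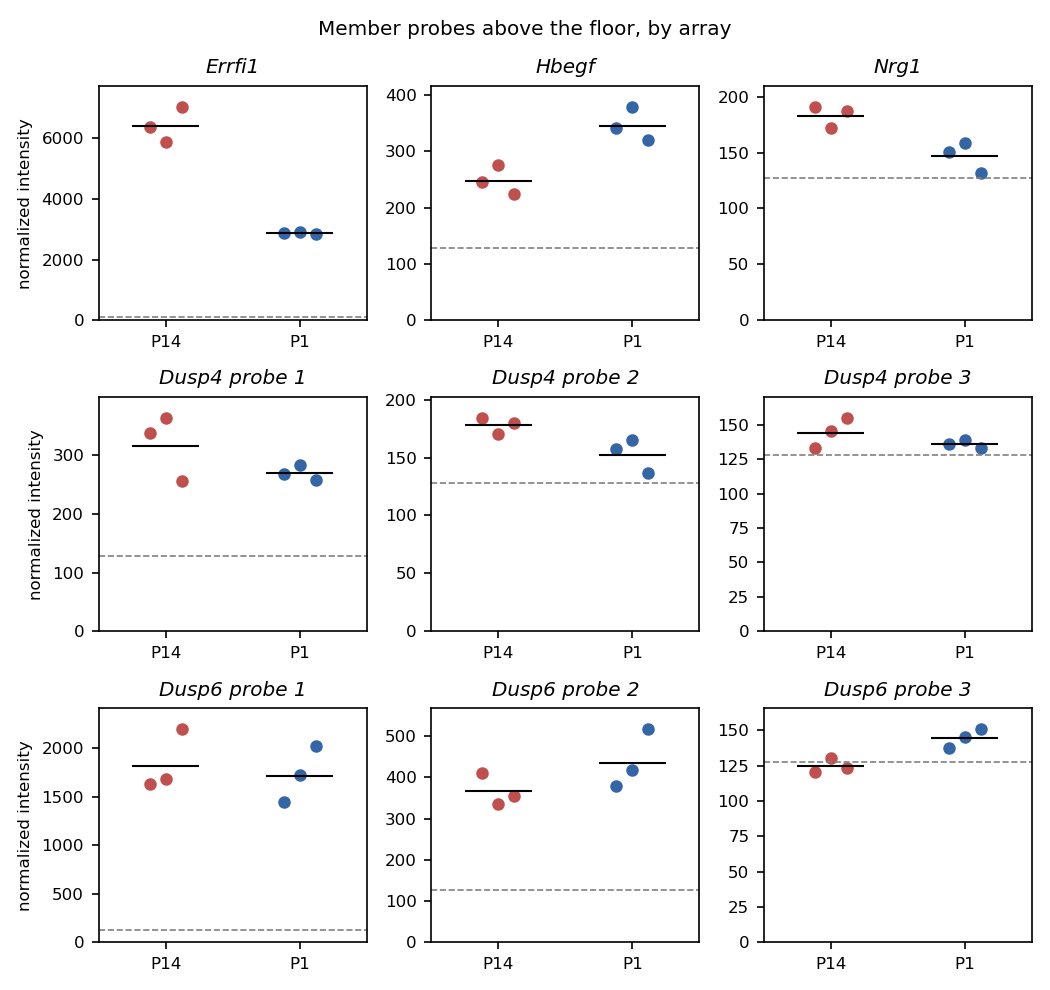
Normalized intensity (arbitrary units, axis from 0) of the 9 member probes past the filter, with 3 P14 arrays left of 3 P1 arrays in each panel. Points are arrays, black lines are means on the log2 scale and the dashed line is the floor of 128. Errfi1 has 5891 to 7024 in P14 and 2860 to 2908 in P1, whereas the ages overlap for the brightest probes of Dusp4 and Dusp6.

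Among the inhibitors that act below the receptor, the Sprouty gene Spry2 was near background. Its probe gave 130, 113 and 118 in P14, against 107, 114 and 109 in P1, with 1 P14 array above the floor.

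Dusp4, a nuclear phosphatase of MAP kinases, was read by 4 probes, 3 of them past the filter and 1 under the floor on all arrays. The brightest gave 337, 362 and 255 in P14, against 267, 282 and 257 in P1. P14 replicates 1 and 2 were above all P1 arrays, while P14 replicate 3 was below them. The log2 fold change was 0.23 ± 0.13 (SE), with a 95% interval from -0.07 to 0.52. Without P14 replicate 3 it was 0.38 and passed the array-wide threshold. The next probe did not overlap between ages, at 184, 170 and 180 in P14 and 157, 165 and 137 in P1. Its log2 fold change was 0.22 ± 0.08 (SE), which did not pass when all kept probes were tested. The dimmest kept probe, at 133 to 155 in P14 and 133 to 139 in P1, had a log2 fold change of 0.08. All 3 values have the same sign.

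Dusp6, a cytoplasmic phosphatase of ERK, had 3 probes that disagreed. The brightest gave 1627, 1686 and 2194 in P14, against 1440, 1725 and 2023 in P1. The ages overlapped, with a log2 fold change of 0.09 ± 0.15 (SE) and a 95% interval from -0.26 to 0.44. The next probe gave 411, 336 and 356 in P14, against 380, 417 and 517 in P1, and a log2 fold change of -0.25 ± 0.13 (SE). The dimmest was lower in P14 on every array, at 120, 130 and 123 in P14 against 137, 145 and 151 in P1. Only 1 of its P14 arrays exceeded the floor, so it was tested because of the P1 arrays, and its value was -0.21 ± 0.07 (SE). Neither of these passed over all kept probes. Averaging the 3 probes turned the direction for Dusp6 (-0.12), as did leaving out P14 replicate 3 (-0.05) or P1 replicate 1 (-0.04), so no direction is given.

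Tested over all 18519 kept probes of the array, 17% of which passed, 3 of the 9 kept member probes passed. These were the probes of Errfi1 and Nrg1, higher in P14, and the brighter Hbegf probe, lower in P14.

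**Figure D2:**
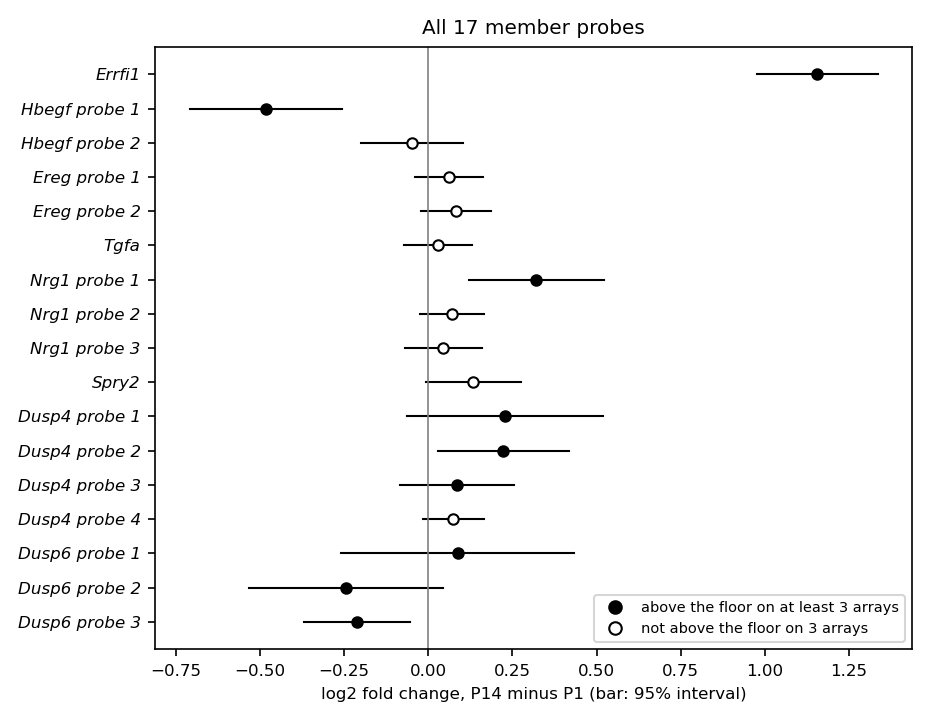
Log2 fold change (P14 minus P1) of all 17 member probes, with 95% intervals from limma. Filled points are the 9 probes past the filter and open points the 8 that were not, which lay between -0.05 and 0.13. Errfi1 stands at 1.16 and the brighter Hbegf probe at -0.48, and the 3 kept Dusp6 probes fall on both sides of 0.

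**Figure D3:**
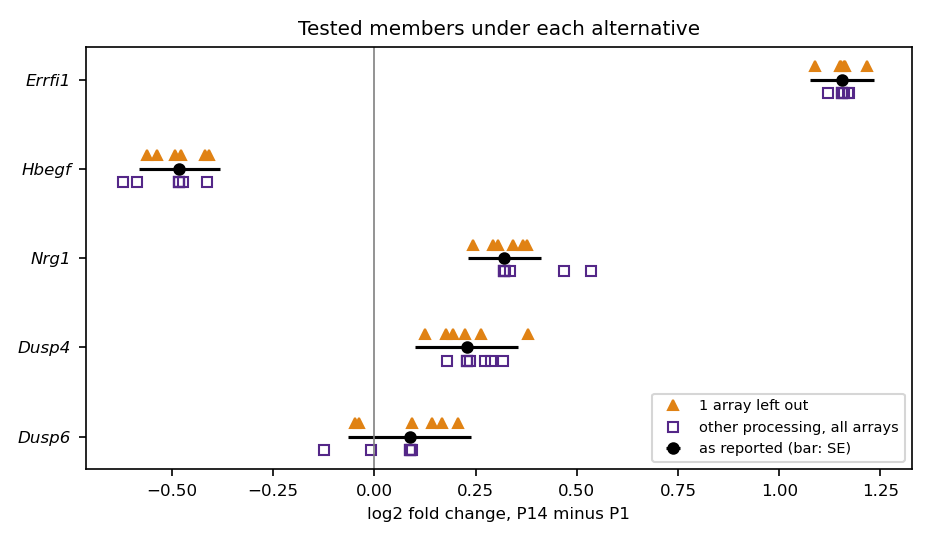
Log2 fold change (P14 minus P1) of the 5 tested members as reported (black, with SE), with each array left out (triangles) and under other processing of all arrays (squares). The points of Errfi1, Hbegf, Nrg1 and Dusp4 each stay on one side of 0, and those of Dusp6 do not.

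The genes around the members divided in direction. Of 79 further genes of the pathway 53 were tested, of which 10 were higher in P14, 7 were lower and 36 did not pass. Their median log2 fold change was 0.0052, against -0.0089 over all genes tested, and 32.1% of them passed, against 20.6% of all genes tested. The lists were chosen with earlier results of these arrays known, and nothing particular to them is read from these shares. P-values here are limma's, adjusted by Benjamini-Hochberg over all 10236 genes.

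The receptors were at the edge of detection. Erbb2, Erbb3 and Erbb4 were under the floor on every array. The brightest probe of Egfr, the receptor of Hbegf, gave 145, 163 and 149 in P14, against 161, 138 and 150 in P1. The ages overlapped, with a log2 fold change of 0.02 ± 0.08 (SE, adjusted p = 0.876) that turned to -0.03 without P14 replicate 2 or P1 replicate 2. The other kept Egfr probes had log2 fold changes of -0.03 and 0.19, and neither passed over all kept probes. The probe at 0.19 did not overlap between ages, at 159, 136 and 134 in P14 and 126, 123 and 126 in P1. It was tested because of its P14 arrays alone. Of 6 further ligands, 2 were tested and 1 was higher in P14. This was Nrg4, a ligand of ErbB4, with 235, 311 and 250 in P14 and 158, 200 and 211 in P1 (log2 fold change 0.48 ± 0.14, SE, adjusted p = 0.0435). The call of Nrg4 ended without any 1 of the 6 arrays (adjusted p 0.0562 to 0.119), with the mean of its 2 probes (0.32, adjusted p = 0.0588) and with no filter on low values (adjusted p = 0.0818).

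Of 10 genes for the shedding and trafficking of ligands, 9 were tested, 3 higher and 1 lower in P14. Frmd8, which stabilises the iRhom proteins that carry the sheddase Adam17 to the cell surface, had 258, 253 and 299 in P14 and 150, 159 and 158 in P1 (0.79 ± 0.08, SE, adjusted p = 0.00181). Its second kept probe, at the floor with 127 to 138 over all arrays, had a log2 fold change of -0.03, and the mean of both was 0.38. The metalloprotease gene Adam8 was higher with both of its probes (0.67 ± 0.13, SE, adjusted p = 0.0113, and 0.71). Adam15, another metalloprotease gene, was lower (-0.62 ± 0.10, SE, adjusted p = 0.00669), but its other 3 probes ran from -0.20 to 0.11. Those 3 were far dimmer, at 139 to 266 over all arrays against 1744 to 3110 for the brightest. The mean of all 4 did not pass (-0.20, adjusted p = 0.0575). For Adam17 itself, the main sheddase of Hbegf and Tgfa, the log2 fold change was -0.07 (adjusted p = 0.711), and without single arrays it was -0.16 to 0.05.

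Further inhibitors at the receptor included 9 tested genes of 12, with 1 higher and 1 lower in P14. Ptpn1, a phosphatase of receptor tyrosine kinases, had 1511, 1492 and 1577 in P14, against 878, 899 and 934 in P1. This was 1.69-fold higher (0.76 ± 0.07, SE, adjusted p = 0.00128). Sh3kbp1, an adaptor that works with Cbl in receptor uptake, was lower (-0.35 ± 0.08, SE, adjusted p = 0.0239). Its other kept probes had log2 fold changes of -0.72, -0.43 and 0.14, the last from a probe near the floor (134 to 178 over all arrays). The Sh3kbp1 call ended without any 1 of the 3 P14 arrays or without P1 replicate 1 or 2 (adjusted p 0.0554 to 0.0625). Of 5 further Sprouty and Spred genes 2 were tested. Spred1, which restrains activation of Raf by Ras, was lower, at 595, 553 and 663 in P14 against 884, 808 and 808 in P1 (-0.47 ± 0.09, SE, adjusted p = 0.0102).

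Of 10 other MAP kinase phosphatases 9 were tested, with 1 higher and 1 lower in P14. Dusp3 was higher (0.41 ± 0.08, SE, adjusted p = 0.0122), although its 4 probes ranged from -0.0011 to 0.47 and their mean was 0.27. Dusp8 was lower (-0.34 ± 0.07, SE, adjusted p = 0.0136) with both of its probes.

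In the cascade from adaptors to ERK, 11 of 20 genes were tested, 3 higher and 1 lower in P14. Rasa1, a GTPase-activating protein that turns Ras off, was 895, 863 and 932 in P14, against 1704, 1514 and 1845 in P1. This was 1.88-fold lower in P14 (-0.91 ± 0.09, SE, adjusted p = 0.00143). Map2k2, a kinase that activates ERK, was higher (0.65 ± 0.08, SE, adjusted p = 0.00251), with 0.12 for its dimmer probe and 0.38 for the mean of both. Gab1, a docking protein of receptor kinases, was higher (0.51 ± 0.13, SE, adjusted p = 0.0262), a call that ended without P14 replicate 1 or 2 or P1 replicate 1 or 2 (adjusted p 0.0543 to 0.0807).

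Of 14 ERK-responsive transcripts 12 were tested, 1 higher and 3 lower in P14, with a median log2 fold change of -0.14. Phlda1, an early-response gene, was lower (-0.51 ± 0.11, SE, adjusted p = 0.0182). Without P14 replicate 2 or P1 replicate 3 it did not pass (adjusted p = 0.0593 and 0.0596). Plaur, the urokinase receptor, was higher (0.49 ± 0.09, SE, adjusted p = 0.0117). Spred1 belongs to this list as well. The immediate-early genes Egr1 (-0.13, adjusted p = 0.214) and Fos (-0.26, adjusted p = 0.0781) did not pass, though Fos did without P14 replicate 2 (-0.35, adjusted p = 0.0418).

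**Figure D4:**
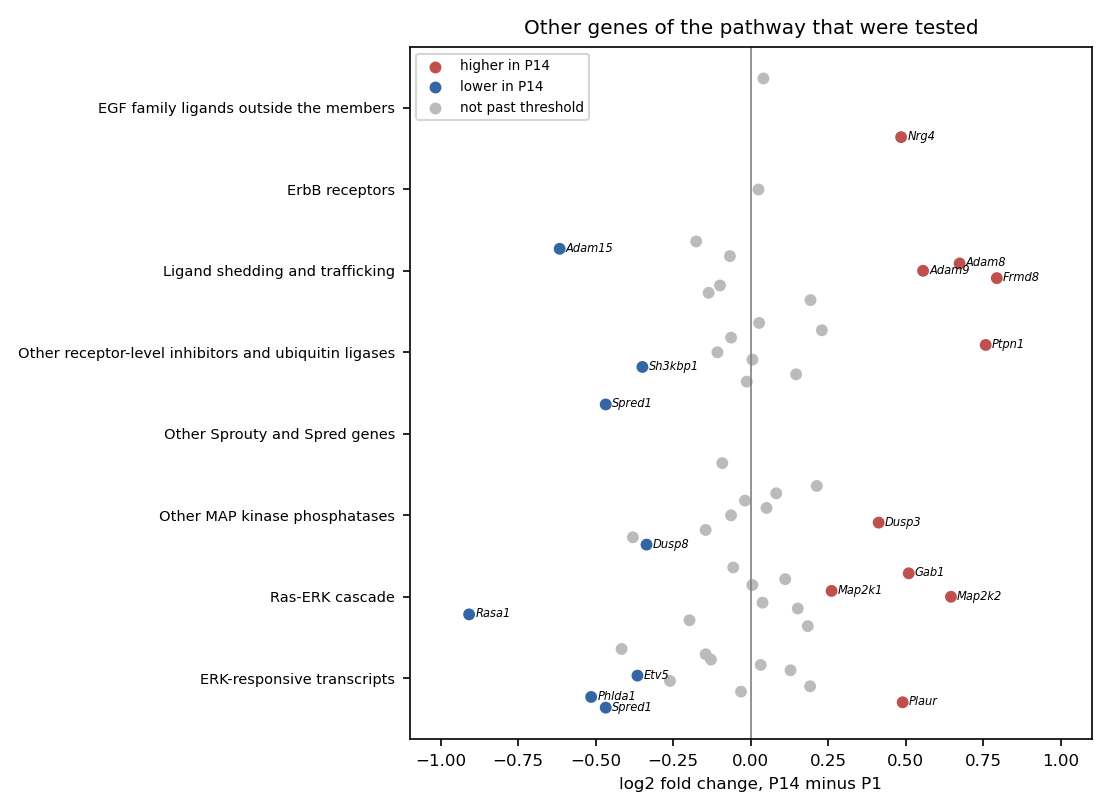
Log2 fold change (P14 minus P1) of the tested genes in 8 pathway lists, with 1 point per gene. Coloured and named points passed an adjusted p of 0.05 in limma, and grey points did not. Named points lie on both sides of 0 in 5 of the 8 lists.

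Markers of other cells moved with age too. Of 11 cardiomyocyte markers tested 8 were lower and 0 higher in P14, and their summed intensity was 3201 to 3507 in P14 and 6431 to 14017 in P1. Of the cardiomyocyte markers with a probe, only Myh7 was under the floor on every array. In P1 the cardiomyocyte sum was 6431, 14017 and 12757 on replicates 1, 2 and 3, where Errfi1 stood at 2866, 2908 and 2860. Errfi1 was higher in P14, where this sum was lower, and the part of cardiomyocyte transcripts in its difference was not tested. Of 11 neutrophil and granulocyte markers tested in these Ly6G-negative cells, 9 were lower and 1, Retnlg, was higher in P14. The sum of the list was 9496 to 13335 in P14 and 16556 to 23647 in P1, with Mmp8 and Cxcr2 under the floor on every array. S100a8 was the largest part of it on every array, at 3545 to 6801 in P14 and 9789 to 14401 in P1. Hbegf was lower in P14 with these 2 lists, and their part in its difference was not tested.

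The 8 endothelial markers, of interest because endothelium expresses Nrg1, were all tested and 0 passed, with sums of 1663 to 2055 in P14 and 1874 to 3025 in P1. Among fibroblast markers 2 of 7 tested, Col1a1 and Tcf21, were lower in P14, with sums of 2577 to 2841 in P14 and 2602 to 4041 in P1, and Postn was under the floor throughout. Of 8 mast cell and basophil markers 6 were under the floor on every array: Cpa3, Mcpt4, Tpsb2, Mcpt8, Ms4a2 and Cd200r3. Of the epicardial, lymphoid and erythroid markers tested, 0 of 1, 0 of 2 and 0 of 4 passed. The erythroid sum, most of it from Hba-a1, was bright and uneven within P14. It was 15734, 20434 and 33075 on P14 replicates 1, 2 and 3, and 22356 to 29700 in P1. The part of erythroid transcripts in the values of P14 replicate 3 was not tested. In sorted bulk material, fewer cells of a type and less RNA per cell cannot be told apart.

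**Figure D5:**
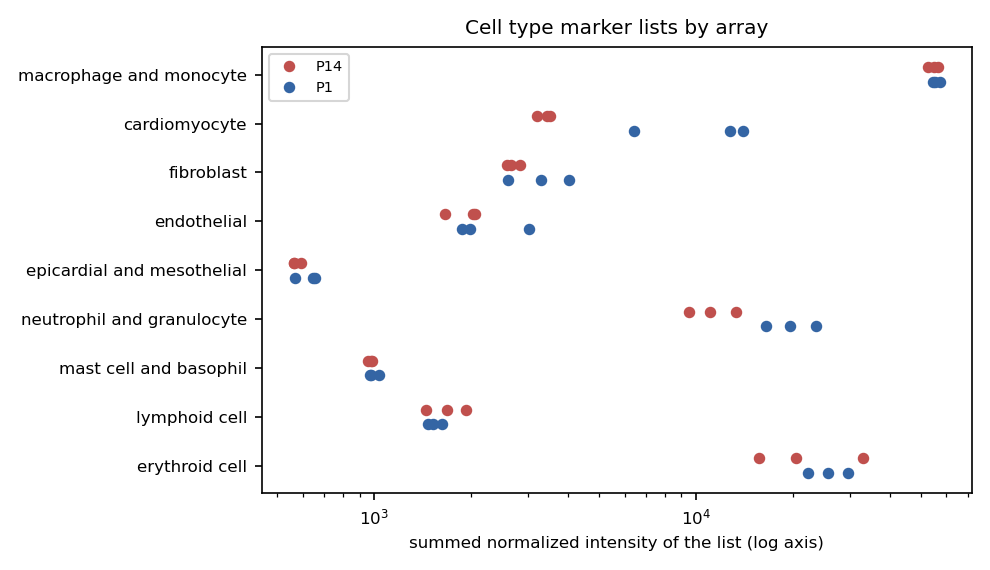
Summed normalized intensity (log axis, arbitrary units) of 9 cell type marker lists on each array, with P14 above P1 in each row. The P14 and P1 arrays separate for cardiomyocyte markers (3201 to 3507 against 6431 to 14017) and for neutrophil and granulocyte markers (9496 to 13335 against 16556 to 23647), and overlap for the other 7 lists.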

How the data were processed

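RNA of the sorted cells was read on 3 P14 and 3 P1 Illumina mouse arrays, grouped by sample title. The deposited values are linear intensity values that the authors had quantile-normalized, judged from the values: the sorted columns differ by at most 0.472%. The normalization software was not given in the sources used here. A table of scanner signals was not used, since its 24 columns (6 positions of 1 chip) match no sample label. The plan allowed for this unit, and log2 of the deposited intensities was analysed.

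Of 45281 probes 34885 had 1 gene symbol, 18 several and 10378 none. RefSeq (GRCm38.p6) held 34807 of the single-symbol probes, with 0 updates. The filter kept 18519 probes and 10236 genes. The floor is the mode plus 3 standard deviations of the mirrored lower values. Two-sided limma fits (version 3.58.1, R 4.3.3; lmFit, then eBayes), checked on simulated data, had an adjusted p threshold of 0.05. Array number limits precision.

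Members, gene lists and tests were chosen with earlier results of these data known. Named were all members, up to 3 passing genes with the largest change per pathway list (or the brightest if none passed), and 3 genes nearest to Errfi1. Adam17, Egr1, Fos, Adam9, Map2k1 and Etv5, and the markers Csf1r, Ptprc, Retnlg, S100a8, Hba-a1, Col1a1 and Tcf21, were added after their values were seen. Alternatives changed the filter, probe rule, variance model, array weights, replicate block, background and normalization, or left out an array.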

Additional observations from a re-analysis of the deposited data

How the results depend on the processing

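As a description, the log2 fold changes of Errfi1 and Hbegf kept their sign under all 15 alternatives. Members passing numbered 2 higher and 1 lower in P14. With no filter on low values, and with the replicate block, 1 member was higher in place of 2, both over genes and over member probes, because Nrg1 did not pass. Without single arrays the members higher numbered 1 to 2 (1 without P14 replicate 1 or 2 or P1 replicate 1 or 3) and lower 1, the member probes higher 1 to 2 and lower 0 to 1, and the pathway genes 7 to 8 higher and 5 to 7 lower. The Hbegf probe did not pass over all probes without P14 replicate 1. Over all genes 1011 were higher and 1093 lower, with 536 to 891 higher and 518 to 923 lower without single arrays. They numbered 536 and 518 without P1 replicate 3, 617 and 617 without P14 replicate 1, and 641 and 590 without P14 replicate 2. Other settings gave 891 to 1177 higher and 950 to 1316 lower. Dusp6 turned to -0.12 with the mean of probes, to -0.0085 with array weights, and ranged from -0.0482 to 0.21 without single arrays. Egfr ranged from -0.0314 to 0.0774 and Adam17 from -0.16 to 0.0470 without single arrays. The cause was not tested. Of the single-gene values under alternatives 387 kept direction and side of the threshold, 39 no longer passed, 2 newly passed (Dusp4, and Fos without P14 replicate 2) and 7 turned. Deviations of same-numbered arrays correlated at 0.16, 0.07 and 0.13, not all above 0.1, so the numbers were not taken as pairs, although each array correlated best with its own number. With the replicate block 1065 genes were higher and 1125 lower, and of the pathway genes 9 were higher, Map2k1 no longer among them, and 7 lower. Signals near the floor limit Nrg1, Ereg, Tgfa, Spry2 and the ErbB receptors.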

Other observations

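Some further genes of the pathway passed the threshold of limma's adjusted p and were picked out after their values were seen. Adam9, a metalloprotease that can cut Hbegf, had 907, 864 and 968 in P14, against 661, 565 and 639 in P1 (log2 fold change 0.56 ± 0.08, SE, n = 3 arrays each, adjusted p = 0.00519). It passed under all 15 alternatives. Etv5, an ETS factor induced by ERK signalling, had 300, 292 and 319 in P14, against 385, 351 and 443 in P1 (-0.37 ± 0.10, SE, adjusted p = 0.0322). Its call ended without P14 replicate 1 or 2 or P1 replicate 1 or 3 (adjusted p 0.0643 to 0.0969). Map2k1, the other kinase that activates ERK, had 246, 261 and 276 in P14, against 222, 209 and 221 in P1 (0.26 ± 0.07, SE, adjusted p = 0.0393). That call ended without any 1 of the 6 arrays (adjusted p 0.0515 to 0.104), with the replicate block (adjusted p = 0.0569) and with trend and robust eBayes (adjusted p = 0.0562).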
